A study of Drosophila melanogaster with 15 samples.

Results

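Of the 2227 transcription units on X and the large autosomal arms that hold only genes with a CR number, 896 overlapped a unit of the opposite strand by 1 bp or more. CR numbers are the FlyBase identifiers of genes annotated as not coding for protein. The units were selected from the authors' map of 15991 transcription units on build dm6, by symbol (CR followed by digits) and by position alone, so the overlap itself is what chose them and is not a result. They made up 5.60% of all units. The other 1331 CR units overlapped nothing on the opposite strand.

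The map belongs to an mNET-seq study, which sequences RNA held by engaged RNA polymerase, in Drosophila melanogaster embryos at stage 15. The labels give 4 groups: 4 male MOF and 4 female MOF samples, in which the maternal supply of mof was lowered by RNA interference from a UAS-mof RNAi transgene, and 3 male and 4 female control RNAi samples. MOF is the acetyltransferase of the complex that raises transcription of the male X. The driver of the transgene is not given in the sources used here, each preparation took 6000 embryos reared at 25 °C, and replicate 1 of the male controls was not used here. Nothing says whether replicates came from separate collections. No per-sample value was analysed here: the depth of the libraries is unknown, the MOF and control groups are not compared, and every value below is a coordinate or a count of units in 1 annotation.

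Antisense transcription runs across a gene on the opposite DNA strand. An antisense RNA can start inside its partner, share the partner's promoter region in a divergent (head-to-head) layout, or run into it from beyond its 3' end (tail-to-tail). Known examples act on the partner by transcriptional interference, by masking its RNA or through chromatin, while many others have no known role. In an assay of nascent RNA, polymerase on either strand gives signal over such a stretch.

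The RefSeq gene types fitted the name non-coding for all but 1 of the 896 units. RefSeq types 446 units as antisense RNA (49.8%), 418 as long non-coding RNA (46.7%), 30 as pseudogenes (3.35%) and 1 as another non-coding RNA (CR43701, 93 bp, inside stet, the shortest unit of all). The exception was CR45207 on 3R (15774754 to 15775336, minus strand), which is now typed as protein-coding and lies inside CG4525. Both were named after their types were seen. Among the other 1331 CR units 88.8% were long non-coding RNAs and 10.4% pseudogenes. None of them was typed as antisense RNA, which may be so by definition: the rule behind the type is not in the sources used here and may itself use overlap with a gene of the other strand. Most antisense CR units had 1 transcript (767 units, 85.6%, against 89.7% of the other CR units), 109 had 2 transcripts and 20 had 3 or more. All but 1 held a single gene: CR43870 and CR43874 share a unit of 18409 bp on 3L. The plus strand carried 457 of the 896.

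The share of CR units that overlapped the opposite strand was 38.9% on X (119 of 306, exact 95% interval 33.4 to 44.6%) and 40.4% on the autosomes (777 of 1921, 38.2 to 42.7%). These and all later intervals cover counting error only, since units of one annotation are not replicates, and no test was made. Among the arms 2L had the lowest share, 32.8% (191 of 582, 29.0 to 36.8%), and 2L also had the highest share of CR units among its units (18.4%, against 12.8% on X). On 3L the share was 42.5% (207 of 487), on 3R 44.3% (210 of 474) and on 2R 44.7% (169 of 378), with intervals that overlap one another and that of X but not that of 2L. Coding units overlapped the opposite strand about as often, at 39.8% (5150 of 12943). They are longer at the median than CR units, and these shares were not scaled by length. X held 13.3% of antisense CR units, 14.0% of the other CR units, 15.6% of coding units and 15.2% of all units on these arms.

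**Figure D1:**
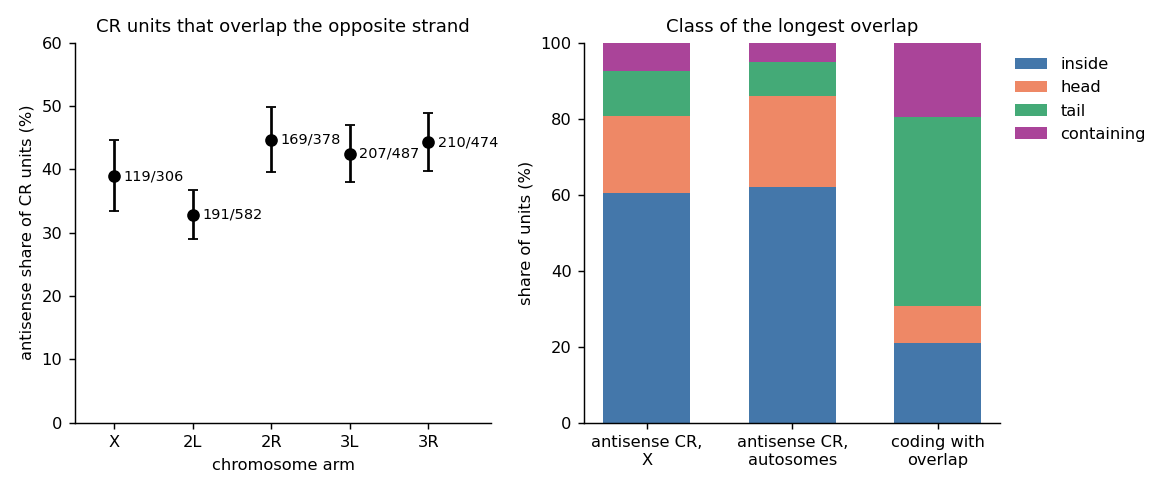
Left, percent of CR units that overlap an opposite-strand unit on each arm, as points with exact 95% binomial intervals and counts. Right, stacked percent of units in each class of overlap for 119 antisense CR units on X, 777 on the autosomes and 5150 coding units with an overlap; the inside class fills 60.5%, 62.2% and 21.0% of the 3 bars, and the tail class 11.8%, 8.75% and 49.6%.

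Most antisense CR units lay wholly within their partner. By the longest overlap of each unit, 555 of 896 (61.9%) were inside, 210 (23.4%) overlapped head to head with both starts in the shared stretch, 82 (9.15%) overlapped tail to tail with both ends shared, and 49 (5.47%) contained an opposite-strand unit whole. Coding units with an overlap had another mix: 21.0% were inside, 9.81% head, 49.6% tail and 19.6% containing. The class depends on the lengths of both units, and coding units are longer at the median than CR units. Partners of coding units included CR units, so some pairs enter both mixes, seen from either side. The autosomal mix of antisense CR units was close to that of X, where 60.5% were inside, 20.2% head, 11.8% tail and 7.56% containing, and the intervals of X and autosomes overlapped in each class. Arms differed more among themselves than X did from the autosomes as a whole: 50.3% of units were inside on 2R (85 of 169, interval 42.5 to 58.1%) and 68.1% on 3L (141 of 207, 61.3 to 74.4%). Head pairs made up 30.8% on 2R and 16.9% on 3L.

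Antisense CR units were short, but longer than the other CR units. Their median length was 840.5 bp (quartiles 536.5 and 1488 bp), against 629 bp (430.5 and 949.5 bp) for the other CR units, 2231 bp for coding units and 1429 bp for coding units nested in opposite-strand coding units. Units under 1 kb made up 59.5% of them, against 76.8% of the other CR units. Antisense and other CR units were split by overlap itself, and a longer unit has more bases at which an overlap can fall. Their difference in length may thus be set in part by the selection, and how far was not tested. By class the median was 771 bp inside, 847 bp head, 985 bp tail and 2133 bp containing; the last class has to be long enough to span its partner. X units had a median of 791 bp, against 853 bp for autosomal units, with quartile ranges that overlap widely (476.5 to 1691.5 bp and 549 to 1428 bp).

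**Figure D2:**
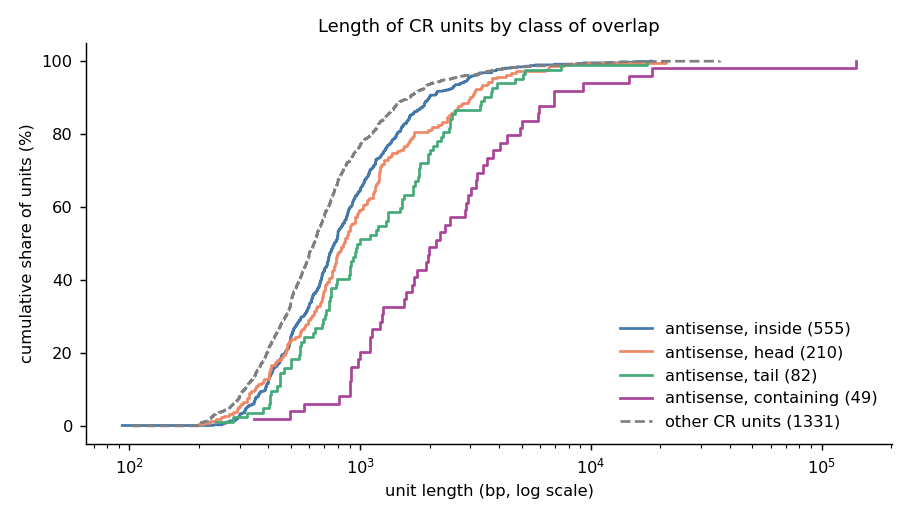
Cumulative percent of units (vertical) up to each length in bp (horizontal, log scale) for the 4 classes of antisense CR units and for the other CR units (dashed). The dashed curve rises first, with a median of 629 bp, and the containing class last, with a median of 2133 bp.

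The extremes of length show how different these entries are. The longest on X was CR44997 (22657324 to 22797682, 140359 bp, 1 transcript), which spans CR44109 whole and takes up 45.2% of all base pairs in antisense CR units of X. It was followed by CR45668 (17510 bp), which shares 912 bp with the 3' end of CG16721, by CR45604 (5913 bp), which spans the joint unit (several genes of a strand that the map holds as 1 unit) of CG2076 and the antiviral gene Vago, by CR43959 (5176 bp) inside Hk, which encodes a potassium channel beta subunit, and by CR44690 (5000 bp). The shortest on X were CR44508 (211 bp), CR44108 (287 bp, inside Shmt, for serine hydroxymethyltransferase) and CR45000 (296 bp, inside Lcch3, a ligand-gated chloride channel gene). On the autosomes CR46003 on 3L was longest (21055 bp), head to head over 1277 bp with the unit of mir-276b. After the joint unit on 3L came CR44811 on 2R (18213 bp), which covers 18213 of the 33613 bp of the joint unit of bs, the serum response factor gene, CR45137 on 2R (15649 bp) in sca, a gene of eye and bristle spacing, and CR44917 on 2L (14666 bp). After CR43701, the shortest were CR45718 (201 bp) and CR45305 (223 bp), of which CR45305 lay head to head with the ribosomal protein gene RpL37A over 153 bp.

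Partners were mostly coding units: 804 of 896 antisense CR units (89.7%) had their longest overlap with a unit that holds a protein-coding gene, 77 (8.59%) with another CR unit and 15 (1.67%) with some other unit. Coding units made up 12943 of the 15739 units on these arms and are longer at the median than CR units. Whether coding partners are more frequent than this makeup alone would give was not tested. The share with a coding partner was 95.9% for the inside class, 84.8% for head, 76.8% for tail and 63.3% for containing. It was 94.1% on X and 89.1% on the autosomes. In all, 862 units served as partners, of which 764 hold a coding gene, so 5.90% of coding units were overlapped by an antisense CR unit. Of the partners 795 met 1 CR unit, 54 met 2, 10 met 3 and 3 met 4. Partners had a median length of 6854 bp (17464 bp for the inside class), against 1828 bp for all units on these arms, with a partner counted once for each CR unit. A longer unit can also be overlapped at more positions, which was not corrected for. The main partner was a joint unit of several genes for 224 of the 896 antisense CR units (25.0%), where a joint unit with 4 CR units counts 4 times. Of coding units, each counted once, 8.40% were joint.

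Longer coding units had an antisense CR unit in a larger share of cases, on X and on the autosomes. A longer unit has more bases at which an overlap can fall, and these shares were not scaled by length. Under 2 kb it was 2.63% on X (20 of 760), close to the 2.55% of the autosomes (131 of 5138). From 2 to 10 kb, 44 of 882 units on X had one (4.99%), against 243 of 4261 autosomal units (5.70%). From 10 to 50 kb it was 10.1% on X (31 of 306, interval 6.99 to 14.1%) and 15.1% on the autosomes (195 of 1291, 13.2 to 17.2%). At 50 kb and over it was 19.2% on X (14 of 73, 10.9 to 30.1%) and 37.1% on the autosomes (86 of 232, 30.8 to 43.6%), while these units had a median length of 78070 bp (X) and 74160 bp (autosomes). Units typed as long non-coding RNA made up most of this: 13 of the 73 coding units on X met one (17.8%), and 74 of the 232 on the autosomes (31.9%). Among coding units of 1 gene at 50 kb and over the shares were 9.38% on X (3 of 32, 1.98 to 25.0%) and 31.1% on the autosomes (32 of 103, 22.3 to 40.9%). Among 1-gene units from 10 to 50 kb they were 7.08% on X (17 of 240, 4.18 to 11.1%), against 13.9% for autosomal units (135 of 974, 11.8 to 16.2%). Over all coding units the intervals of X and autosomes overlapped below 50 kb and did not meet at 50 kb and over, where X rests on 14 units. Over 1-gene units they did not meet from 10 to 50 kb and overlapped in the other 3 length classes. No test was made of this difference, and units that lie close together on a chromosome are not independent.

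**Figure D3:**
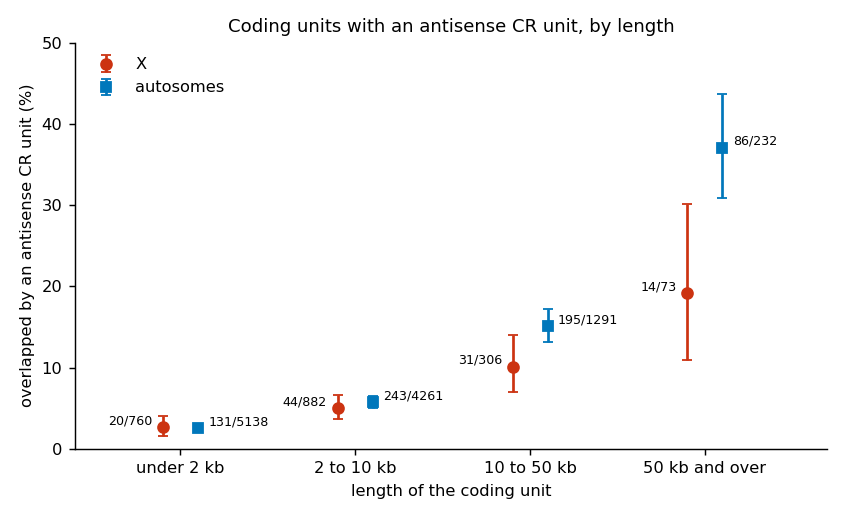
Percent of coding units overlapped by an antisense CR unit (vertical) in 4 classes of coding unit length (horizontal), on X (circles) and the autosomes (squares), with exact 95% binomial intervals and counts. The shares stand at 2.63% on X and 2.55% on the autosomes under 2 kb, and at 19.2% on X and 37.1% on the autosomes at 50 kb and over.

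Within the inside class, which was found by position, layout differed by RefSeq type. The 240 units typed as antisense RNA had a median length of 902 bp and lay in partners with a median of 5382.5 bp. The 300 units typed as long non-coding RNA were 715.5 bp long at the median and lay in partners of 40046 bp (quartiles 16217.5 and 81186 bp). Of the units typed as antisense RNA, 42.5% started in the last of 5 equal parts of the partner (102 of 240, interval 36.2 to 49.0%), next to its 3' end, and 9.17% in the first part. Of those typed as long non-coding RNA, 10.7% started in the last part (32 of 300, 7.41 to 14.7%) and 24.7% in the first. A unit inside runs towards the partner's start, so its own start has to lie at least its own length away from it, which counts for more in short partners. By the midpoint of the CR unit the last part held 21.25% of units typed as antisense RNA and 9.33% of those typed as long non-coding RNA. The midpoint has a limit too: the unit's own length keeps it away from both ends of the partner, most of all in short partners. On X none of 37 units typed as long non-coding RNA started in the last part (interval up to 9.49%), against 32 of 263 on the autosomes (12.2%, 8.47 to 16.7%). Over all types the start lay in the last part for 24.3% and the midpoint for 14.4% of the 555 units, so the excess at the 3' end depends on the point measured. If the type itself rests on where a unit lies in its partner, these differences between types are in part set by that rule. Exon positions of the partners were not used, so exonic and intronic positions are not told apart.

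**Figure D4:**
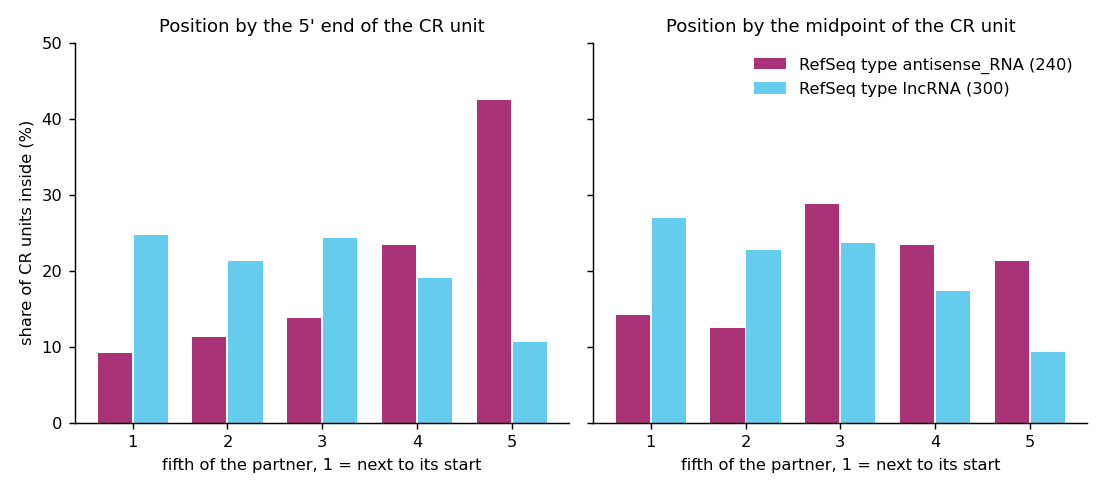
Percent of CR units that lie inside a partner (vertical) in each of 5 equal parts of the partner's length (horizontal, 1 next to its start), for 240 units typed as antisense RNA and 300 typed as long non-coding RNA, by 5' end (left) and by midpoint (right). The last part holds 42.5% and 10.7% of units by 5' end, and 21.25% and 9.33% by midpoint.

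The largest antisense CR units inside a partner were CR44811 in bs, CR45137 in sca and CR45224 (14499 bp on 3R) in the joint unit of SKIP, Gld2 and mir-1010. On X they were CR43959 in Hk, CR32730 (4251 bp) in CG9650, a zinc-finger gene of 104210 bp, and CR43480 (3286 bp) in the joint unit of CG17159 and CG17162. CR43959 started 6856 bp downstream of the Hk start in a unit of 30139 bp, at 22.7% of its length. CR45137 covered 15649 of the 21470 bp of sca.

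Some coding units carried several CR units on their antisense strand. On the autosomes 3 units held 4 each, all inside. The joint unit of CG32085 and CR45883 on 3L (11650517 to 11680344, 29828 bp) held CR45881, CR45880 and CR45882, with starts 14025, 13066 and 12133 bp from its own, and CR45884 at 7731 bp. The joint unit of kis on 2L (210735 to 250823), which encodes a chromatin remodeler of the CHD family, held CR44220 (400 bp), CR44222 (1190 bp), CR44221 (552 bp) and CR44218 (904 bp), the last starting 1914 bp from the kis start. The joint unit of Myo81F on 3R (567076 to 2532932) held CR41571, CR46123, CR46122 and CR40182, of 252 to 901 bp, spread over its 1965857 bp. With 3 each followed the joint unit of CTPsyn on 3L, for CTP synthase, and so on 2R, the homeobox gene of eye development, whose CR44202, CR44203 and CR44204 started 3644, 10645 and 13146 bp from the so start. No unit on X met more than 2 antisense CR units. Over all arms only 10 of the 862 partners met 3 and 3 met 4, so this says little about X. The shortest units on X that met 2 were CG32817 (1101 bp), FucTC (2538 bp, a fucosyltransferase gene), CG15721 (3257 bp), svr (12627 bp, a carboxypeptidase gene) and gce (21309 bp). The gene gce encodes a juvenile hormone receptor. CG15721 and gce show unlike pairs: CR43636 overlapped the start of CG15721 over 2503 bp and CR43152 its end over 143 bp, while CR44429 overlapped the gce start over 452 bp and CR44961 (2912 bp) lay inside it.

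**Figure D5:**
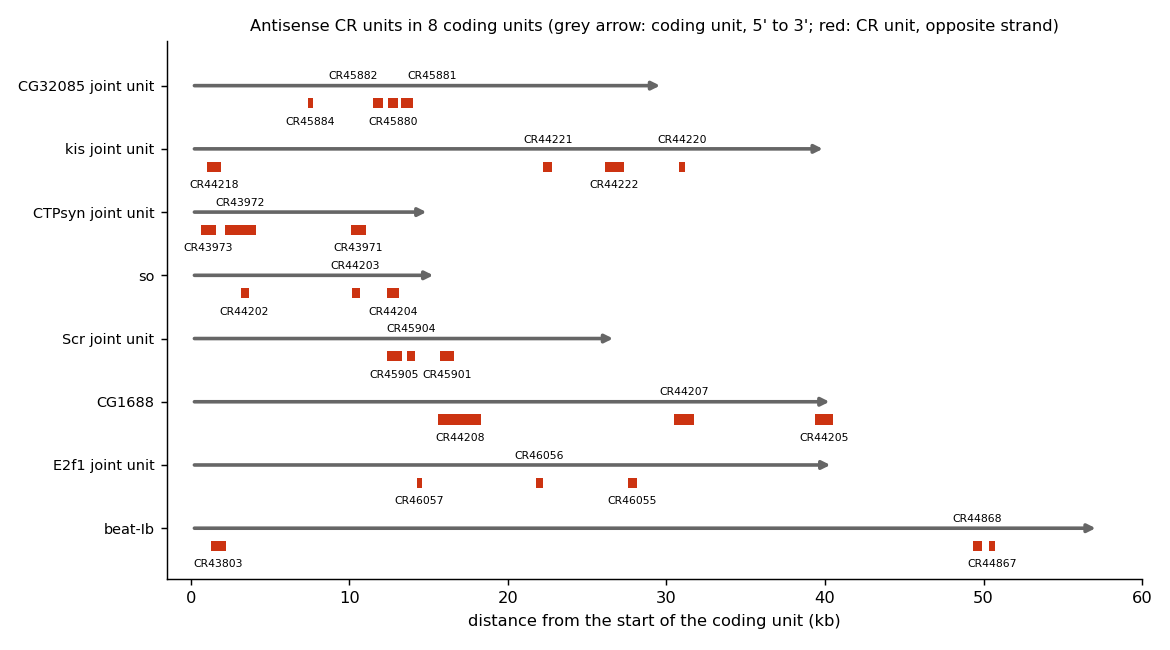
Positions of antisense CR units (red, below each arrow) along the 8 autosomal coding units shorter than 60 kb that carry 3 or 4 of them (grey arrows, 5' to 3'), as distance in kb from the start of the coding unit. The CR units of CG32085 and Scr stand close together, while those of so and E2f1 are spread along the unit.

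Head-to-head overlap puts 2 starts in a shared stretch. In the 210 head units the distance between the CR start and the partner's start had a median of 490.5 bp (quartiles 206.5 and 994.5 bp, up to 9378 bp), and the partners had a median length of 2851.5 bp, against 17464 bp for the inside class and 2231 bp for all coding units. In this class the distance between starts is the overlap less 1 bp, so close starts are short overlaps by definition. On X the median distance was 430.5 bp (24 units), and on the autosomes 507.5 bp (186 units). Units in head pairs were typed as antisense RNA in 64.8% of cases, against 61.2% for containing, 48.8% for tail and 43.2% for the inside class. The closest starts with a coding partner were those of CR45463 and Daxx on 2L (1 bp apart), CR45718 and CG7203 on 2L (3 bp), CR45624 and the joint unit of Imp on X (8 bp), CR43926 and dsf on 2L (24 bp) and CR45446 and DNApol-delta on 3L (31 bp). Daxx encodes a histone chaperone, Imp an RNA-binding protein, dsf a nuclear receptor of sexual behaviour and DNApol-delta a replicative polymerase. The longest head overlaps were 9379 bp for CR45363 with Traf4 on 2L, 5997 bp for CR45139 with uex on 2R and 5800 bp for CR45223 with the joint unit that begins with CG14322 on 3R. On X they were 2503 bp for CR43636 with CG15721, 2418 bp for CR45481 with CG6414 and 1836 bp for CR45479 with the cytochrome P450 gene Cyp4d14.

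Counted from the side of the coding units, 236 of 12943 (1.82%) had their start covered by an antisense CR unit, namely 34 of 2021 on X (1.68%) and 202 of 10922 autosomal units (1.85%). The end was covered in 124 (0.958%), 1.09% on X and 0.934% on the autosomes. An antisense CR unit started within 500 bp of the start of a coding unit that it overlapped in 104 cases (11.6%), with 19 of 119 units on X (interval 9.90 to 23.8%) and 85 of 777 on the autosomes (10.9%, 8.83 to 13.3%). It started within 500 bp of the partner's end in 176 cases (19.6%), 21.8% on X and 19.3% on the autosomes. An overlapping unit of the other strand cannot start upstream of the partner's start, but it can start on either side of the partner's end. The window at the end is thus wider, and the shares at start and end cannot be compared directly. The starts are the outermost annotated ones, not starts measured in these embryos.

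Tail-to-tail units shared a median of 438 bp (quartiles 70 and 1138.5 bp). The longest with a coding partner were CR44069 at the 3' end of the joint unit of Mmp2 on 2R (4479 bp), a matrix metalloprotease gene, CR46089 at the joint unit of CG17119 and the Hippo pathway gene sav on 3R (3575 bp), CR45621 at CG2543 on X (3423 bp), CR44390 at the apoptosis gene Dark on 2R (3052 bp) and CR43614 at CG3626 on X (2351 bp). Of the 30 pseudogene units 11 were in the tail class (36.7%, interval 19.9 to 56.1%), against 9.15% of all 896 antisense CR units. The longest pseudogene was CR33294 on 3R (9248 bp), which spans Dsk whole (569 bp), the gene of the neuropeptide drosulfakinin. CR43281 (3336 bp, 2R) lay head to head with CR46064, CR18275 (2453 bp, X) spans CG13373, and CR42490 (2417 bp, 2L) and CR18217 (2276 bp, 3L) shared 657 and 12 bp with the ends of CG43338 and CG32165.

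Containing units span whole genes of the other strand. CR45604 covered the 2809 bp of Vago and CG2076 on X, CR44690 the 2723 bp of the cytochrome P450 gene Cyp4d2, and CR44053 the 2448 bp of ppk28, a channel gene of water taste. On the autosomes CR44169 covered the 3022 bp of the serpin gene Spn42Da, CR46135 the 2582 bp of Atu and CR45281 the 2234 bp of CG1809. Most CR units had 1 partner (853), 39 had 2, 3 had 3 and 1 had 5. The unit with 5 was CR45260 on 2L (8862610 to 8867511, 4902 bp), named here after its count was seen: it spans CG32986, CG32987, CG32988 and CG32983 whole and shares 745 bp with the start of CG9483. CR44690 on X met 3, with the end of CR45479 over 39 bp and the start of Cyp4ae1 over 1810 bp beside Cyp4d2.

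In 43 pairs both units were CR units, 83 units in all. Of these pairs 17 were nested, 16 head and 10 tail. Beside CR44997 and CR44109 the longest shared stretches were 1692 bp of CR46336 and CR46337 (tail, 2R), 1507 bp of CR45553 and CR45552 (head, 3R), 1441 bp of CR45550 inside CR45551 (3R) and 1346 bp of CR44918 inside CR44917 (2L). At the threshold of 1 bp stood CR43482 with CR43483 on 3L and CR44455 with CR44456 on 2R, whose starts are the same base. Just outside it were CR43983 beside CG43982 on 2R and the pair CR45401 and CR45402 on 3L, whose starts adjoin with a gap of 0 bp. The other CR units had a median gap of 2755 bp to the nearest opposite-strand unit.

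The 7 units of the MSL complex include the RNA genes roX1 and roX2 beside coding genes. None of these 7 and none of the 6 of the NSL complex, where MOF is also found, overlapped an antisense CR unit. The share was 5.90% of all coding units, and lists this short would often hold none at that share. Of 8 units of MSL partner genes, 1 was overlapped, that of BEAF-32, an insulator protein gene. CR42254 on 2R (14769599 to 14771295, minus strand, 3 transcripts) started 826 bp downstream of the BEAF-32 start and overlapped it head to head over 827 bp. The sex determination list had 2 of 17 units: CR45789 shared 362 bp with the end of da, a bHLH activator gene, on 2L, and CR44275 (1501 bp) lay inside dpn, a bHLH repressor gene, on 2R. Of 14 units of pausing genes only Nelf-A, for a subunit of the pausing factor NELF, was overlapped: the start of CR44265 on 3R lay 885 bp downstream of its start, so that 886 bp at its 5' end are shared. All 4 of these coding units are autosomal, but X holds only 15.6% of coding units, so this count says little about X.

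Among 8 Hox units, which pattern the body axis, 2 held antisense CR units. The Hox units had a median length of 30563 bp, and 14.2% of all coding units of 10 to 50 kb overlapped an antisense CR unit. The joint unit of Scr, CR45902 and CR45903 on 3R (6823120 to 6849981, 26862 bp) held CR45901, CR45904 and CR45905. These started 16618, 14112 and 13315 bp from the start of the joint unit. In Abd-B on 3R, CR46267 (1864 bp) started 20329 bp from the Abd-B start. Of 16 units of segmentation genes 2 were overlapped, and both at the start: prd by CR44592 over 179 bp on 2L and eve by CR43948 over 266 bp on 2R, each a homeobox gene of the pair-rule class. Of 10 neurogenic and proneural units only the joint unit of CR46009 and pros, a homeobox gene of neural differentiation, held any. CR46008 started 7827 bp and CR46010 28121 bp from the start of this joint unit of 79148 bp on 3R.

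The neuronal list, with a median unit length of 41455 bp, had 4 of 12 units with 6 antisense CR units, all inside. Dscam1 on 2R, the cell-surface receptor gene with 75 annotated transcripts, held CR45129 (9300 bp), which started 56003 bp from the Dscam1 start, and CR44071 (351 bp). The joint unit of Ten-m, CR45962 and CR45965 on 3L held CR45963 and CR45964. On X the joint unit of Ten-a, a relative of Ten-m, held CR43961 (2940 bp). Syt1 on 2L, the synaptic calcium sensor gene, held CR43821 (490 bp). In the muscle list 2 of 10 units were overlapped: CR42860 (1461 bp) lay inside sls on 3L, which encodes the fly titin, and CR45591 overlapped the start of the actin gene Act87E on 3R over 196 bp. In the epidermis and trachea list 2 of 9 were: CR45270 overlapped the start of grh on 2R, an epidermal transcription factor gene, over 576 bp, and CR46038 (1991 bp) lay inside knk on 3R, a gene of chitin organisation. Over the 11 lists these counts are small, the lists differ in unit length, and no list is set apart by a test. For comparison, the share was 5.90% of all coding units, 14.2% from 10 to 50 kb and 32.8% at 50 kb and over.

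Of the 20 antisense CR units with 3 or more transcripts 14 were typed as antisense RNA, 5 as long non-coding RNA and 1 as a pseudogene. CR45139, head to head with uex on 2R, had 6 transcripts and CR46336 on 2R had 5. The other 18 had 3, the longest of them CR44917, CR45912 (7418 bp, 3L), CR44178 (6953 bp, 3R) inside RhoGAP93B, CR45621, CR43299 (3419 bp, X), which spans CG8119, and CR43481 (2960 bp, 3L), which shares 1375 bp with the start of the small heat shock gene Hsp67Ba.

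In all, 958404 of the 1363161 bp in antisense CR units (70.3%) were shared with the opposite strand, 39.6% on X and 79.4% on the autosomes. Without CR44997 the share on X was 71.0% (120795 of 170152 bp). Every base was shared in the 555 units of the inside class, by its definition. Where coverage is summed over both strands, as the labels say of a deposited track, signal over these bases cannot be given to either strand.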

How the data were processed

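The only file used was the authors' annotation of transcription units, deposited as positions on build dm6 (build per the submitters' processing notes), written with rtracklayer 1.48.0 per the file headers. It holds no value of any of the 15 samples, and no per-sample column was left unused (0). The submitters' processing notes also name cutadapt 2.8, STAR 2.7.4a and SAMtools 1.20, none of which made a value used here. How the authors joined genes into units is not given in the sources used here.

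Opposite-strand overlaps of 1 bp or more were found with Python 3.11.15, pandas 2.3.3 and NumPy 2.4.6 and classed by position and strand; a unit with several partners took its longest overlap. The search was tested on simulated units. Gene types came from a RefSeq gene table of the Release 6 plus ISO1 MT assembly, which matched 17647 of 17698 genes and all 897 genes of the antisense CR units. Of 895 antisense CR units of 1 gene, 887 (99.1%) had the RefSeq bounds. CR genes joined with other genes on their strand (283 of 2516) are not in CR-only units and were left out. Exact (Clopper-Pearson) 95% binomial intervals came from SciPy 1.17.1.

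Units named in the text are, on X and on the autosomes, the 5 longest and 3 shortest, the 3 longest overlaps of each class and the 5 partners with the most CR units; also all with a partner in the gene lists, the pairs at the threshold, the 5 longest CR pairs, the 5 closest head and 5 longest tail pairs with a coding partner, units with 3 or more transcripts and the 5 longest pseudogenes. The members and lists were chosen with earlier results of these data known. Alternatives changed the minimum overlap, the partners counted, the class rule, the point that gives the position, and the units included. Sequences, promoter motifs and exon positions were not used here.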

Additional observations from a re-analysis of the deposited data

How the results depend on the processing

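Of 72 alternative values 51 stayed within the intervals or the 1.5-fold range around the reported ones and 21 did not. The tally is no measure of stability, because some alternatives could hardly move a value. Units of a single CR gene numbered 895 of the 896, and counting chromosome 4 gave 911. The antisense share of CR units, reported as 40.2%, was 38.1% with at least 100 bp of overlap, 33.7% with at least 50% of the CR unit overlapped, 30.4% with 1-gene partners and 36.2% with coding partners only. The inside share was then 65.3%, 74%, 53.6% and 65.9%. The head share was 18% with 50% overlapped and 28.6% with 1-gene partners. The tail share was 7.08% with 100 bp, 5.33% with 50% overlapped and 11.4% when a class with any partner counted. The containing share was 2.67% with 50% overlapped, 7.40% with 1-gene partners and 3.97% with coding partners. The share with a coding partner was 93.9% with 50% overlapped and 87.4% with 1-gene partners. Most of these shifts follow from which overlaps and partners an alternative admits. The inside class stayed the most frequent under each of these alternatives. Chosen after seeing the data, the midpoint placed 14.4% of all inside units and 21.25% of those typed as antisense RNA in the last of 5 equal parts of the partner, and 1-gene coding units of 50 kb and over on X gave 9.38%. No paired analysis was possible because the annotation holds no value of any sample, and no replicate could be left out for the same reason. Depth is unknown and limits no count given here.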

Other observations

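Antisense CR units whose main partner held neither a coding gene nor only CR genes numbered 15, all on the autosomes, and most of these partners hold small RNAs. They are given here after their values were seen. CR43423 (1083 bp) lay inside the joint unit of CR43334 and ban on 3L, the microRNA gene bantam, a regulator of growth and cell survival, and started 10133 bp from its start. In the Hox region of 3R, CR43435 (836 bp) lay inside the joint unit of CR42721 and mir-993 and CR45915 (428 bp) inside that of CR42651 and mir-10. CR43617 (5452 bp) lay inside the joint unit (92116 bp) of mir-iab-8 and iab-8, the long non-coding RNA gene of the bithorax complex.

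At the ends of such units, CR45912 shared 2674 bp with the joint unit of mir-315 and CR43977 shared 23 bp with that of mir-316, both on 3L. CR45949 (2215 bp) on 2L spans mir-87 (99 bp), CR44066 spans the tRNA gene tRNA:Arg-TCT-3-1 (73 bp) and CR45330 the spliceosomal RNA gene snRNA:U2:34ABc (192 bp). CR44794 shared 137 of the 148 bp of snRNA:U4:25F. Both pseudogenes CR33255 (389 bp) and CR42842 (387 bp) lay inside hairpin RNA genes, hpRNA:CR32205 and hpRNA:CR32207.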
